A study of Homo sapiens with 15 samples.

Results

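The replication-dependent histone genes were taken as every row of the count table whose Entrez gene number carries a symbol made of H2AC, H2BC, H3C or H4C and a number, or one of H1-1 to H1-6. This gave 69 of the 28395 genes of the table, of which 6 encode the linker histone H1, 17 encode H2A, 18 encode H2B, 13 encode H3 and 15 encode H4. On GRCh38, 55 of them lie in the cluster of chromosome 6, 11 in the proximal cluster of chromosome 1, and 2 (H2AC25 and H2BC26) in the distal cluster of chromosome 1, while H4C16 lies alone on chromosome 12. RNA was sequenced from the established human bronchial epithelial line BEAS-2B in 15 samples. Control cells and cells exposed to nanoplastics of polyethylene terephthalate (PET-NPLs) at 50 µg/mL were sampled after 24 h (2 control and 2 exposed samples), 15 weeks (2 and 2) and 30 weeks (3 and 4), and the controls were cultured in parallel without particles. All of the samples came from 1 cell line, the exposed cultures were kept under weekly passage, and the labels do not say that replicates were separate cultures, so that p-values may measure only technical spread. The samples of 24 h and 15 weeks were sequenced in batch 1 and those of 30 weeks in batch 2.

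Replication-dependent histone genes supply the proteins that package newly copied DNA, and their mRNA is made mainly in S phase. As a rule these genes have no introns, and their mRNA ends in a short stem-loop in place of a poly(A) tail. The stem-loop binding protein SLBP and the U7 small nuclear ribonucleoprotein direct the cut that makes this end. The annotated spans of 8 members are longer than 1000 bases. In H2BC18, H4C15, H2BC21, H2BC4, H2BC5 and H2BC12 the annotated span runs at least 1729 bases past the stem-loop. NPAT and CASP8AP2 take part in their transcription at the histone locus body, a nuclear structure that forms on the clusters. The libraries were made from total RNA after removal of ribosomal RNA, a protocol that keeps mRNA without a poly(A) tail.

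The stem-loop is shown because it separates the members from nearly all other genes and differs between classes. A stem of 6 paired bases that starts with GG and a loop of 4 bases that starts with TT were searched on the sense strand of each gene. In the last 150 bases of the gene it was found in 57 of the 61 histone genes whose annotated span is under 1000 bases (93.4%), and in 7 of 19901 other protein-coding genes (0.0352%). Anywhere in the span it was found in 64 of the 69. The 5 versions are printed 5′ to 3′ with the paired stem in capitals, each with the number of genes that carried it.
version 1 (40 genes): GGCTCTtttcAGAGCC
version 2 (10 genes): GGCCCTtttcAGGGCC
version 3 (9 genes): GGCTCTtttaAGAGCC
version 4 (4 genes): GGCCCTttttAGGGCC
version 5 (1 gene): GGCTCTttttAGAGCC
All genes with versions 2 and 4 were H4 genes, and versions 1, 3 and 5 were found in the other classes. The annotated spans of H3C6, H2BC10, H2AC11, H2AC15 and H4C13 held no match, which says only that these letters are not within the span.

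Promoters of 64 members were in the RefSeq table (GRCh38.p14, 250 bases before and 50 after the annotated start); those of H4C1, H4C3, H2AC12, H3C11 and H3C12 were not. TATAAA, searched on both strands, was found in 65.6% of the histone promoters against 12% of all 27305 promoters, CCAAT in 84.4% against 35.7%, and ATTTGCAT, the octamer, in 40.6% against 1.8%. The octamer was found in 14 of 18 H2B, 11 of 16 H2A, 1 of 11 H3, 0 of 6 H1 and 0 of 13 H4 promoters. The H3 match was that of H3C4, whose annotated span starts at the same base and on the same strand as that of H2AC7. This match may therefore not belong to an H3 promoter of its own. CCAAT was found in each of the H1, H2A, H2B and H3 promoters and in 3 of 13 H4 promoters. Some H2A and H2B genes stand head to head, and 11 such pairs were less than 300 bases apart. Their gaps of 193 to 247 bases lie within the promoter windows of both genes. A single match there was counted for the H2A and for the H2B gene, so the shares above are not over separate sites. The region between H2BC8 and H2AC8 is printed as an example, and that between H2AC25 and H2BC26 because this pair departed from the other members at 30 weeks. Both are given on the plus strand of GRCh38 with matches to the 3 motifs, on either strand, in capitals.
H2BC8 to H2AC8, chr6:26216689-26216920: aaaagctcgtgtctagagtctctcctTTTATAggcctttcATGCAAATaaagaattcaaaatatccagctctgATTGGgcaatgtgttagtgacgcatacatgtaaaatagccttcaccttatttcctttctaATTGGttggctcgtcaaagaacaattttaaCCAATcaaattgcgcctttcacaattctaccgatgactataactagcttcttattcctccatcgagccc
H2AC25 to H2BC26, chr1:228457874-228458102: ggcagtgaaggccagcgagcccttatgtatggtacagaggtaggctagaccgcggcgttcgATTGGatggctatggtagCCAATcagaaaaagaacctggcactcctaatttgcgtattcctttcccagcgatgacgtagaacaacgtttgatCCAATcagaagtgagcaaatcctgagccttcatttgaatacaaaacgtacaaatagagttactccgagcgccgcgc
The first region holds TATAAA, 3 copies of CCAAT and the octamer. The second holds 3 copies of CCAAT and neither of the other motifs. The region between H2AC15 and H2BC15, which were both lower in exposed cells at 30 weeks, held the same motif counts. Whether these motifs bear on the fold changes was not tested. The promoters of the genes that fell most and of the one that rose with exposure at 30 weeks are printed on the sense strand in the same way.
H4C6, chr6:26240143-26240442, plus strand: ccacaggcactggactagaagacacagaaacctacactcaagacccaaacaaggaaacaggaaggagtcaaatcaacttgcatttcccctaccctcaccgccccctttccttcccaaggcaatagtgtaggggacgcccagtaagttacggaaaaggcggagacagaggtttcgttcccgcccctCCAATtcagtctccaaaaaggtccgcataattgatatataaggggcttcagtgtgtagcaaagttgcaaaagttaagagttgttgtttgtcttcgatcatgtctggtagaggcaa
H3C1, chr6:26020201-26020500, plus strand: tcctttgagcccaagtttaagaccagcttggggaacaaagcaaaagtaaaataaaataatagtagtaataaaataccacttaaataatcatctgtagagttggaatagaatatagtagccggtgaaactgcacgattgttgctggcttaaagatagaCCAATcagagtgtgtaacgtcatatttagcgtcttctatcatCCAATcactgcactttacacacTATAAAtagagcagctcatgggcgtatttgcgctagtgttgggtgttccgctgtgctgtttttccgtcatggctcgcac
H3C3, chr6:26045134-26045433, plus strand: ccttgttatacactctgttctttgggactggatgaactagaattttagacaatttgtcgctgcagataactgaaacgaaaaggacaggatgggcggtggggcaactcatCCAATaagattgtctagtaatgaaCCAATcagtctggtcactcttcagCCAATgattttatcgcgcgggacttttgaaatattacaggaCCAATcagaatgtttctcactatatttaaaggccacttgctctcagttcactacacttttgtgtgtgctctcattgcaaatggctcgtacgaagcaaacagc
H3C1 carried both TATAAA and CCAAT, whereas H4C6 and H3C3 carried CCAAT without TATAAA; a match is a string of letters and not a tested site.

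Depth ran from 23143202 to 31459990 counts per sample. At 30 weeks control replicate 1 and exposed replicate 1 stood apart for these genes: control replicate 1 was the highest of 3 for 61 of 65 tested members, and exposed replicate 1 was the lowest of 4 for 61 of 65. The epithelial keratin genes KRT8 and KRT18 were detected in every sample, but NKX2-1, TP63 and FOXJ1, which define lung, basal and ciliated epithelium, had 3 counts or fewer in every sample. The summed level of 6 skeletal muscle markers was 73.1 to 114 CPM in the 30-week controls and 3.44 to 10.3 CPM in all other samples. In bulk RNA, fewer cells in S phase and less histone mRNA per cell cannot be told apart.

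The share of all counts that fell on the 69 genes was 1.57% to 1.96% in batch 1, 3.66% to 5.37% in the 30-week controls and 2.8% to 3.6% in the 30-week exposed cells. Counting error, which the 95% Wilson interval of each share covers, was small against the spread between samples. Levels were given as CPM after TMM scaling, counts set to a common library size and level over most genes. Summed over the members, the level at 24 h was 17492 and 19278 CPM in controls and 15479 and 19364 CPM in exposed cells. At 15 weeks it was 17117 and 17602 CPM in controls and 16038 and 17004 CPM in exposed cells. At 30 weeks it was 72628, 49270 and 40431 CPM in controls and 26874, 38410, 37370 and 34500 CPM in exposed cells. Every 30-week sample was above every earlier one, and at 30 weeks all 4 exposed samples were below all 3 controls, although the lowest control and the highest exposed sample lay close together. The 30-week controls averaged 54108 ± 16600 CPM (SD, n = 3) and the exposed cells of that time 34288 ± 5210 CPM (SD, n = 4), a ratio of 0.634. Without control replicate 1 the control mean was 44848 CPM and the ratio 0.765, and without exposed replicate 1 the ratio was 0.679. With all libraries, each class gave a similar ratio at 30 weeks, from 0.605 for H2B and 0.612 for H4 to 0.634 for H2A, 0.648 for H3 and 0.696 for H1. The chromosome 6 cluster (0.632) and the proximal chromosome 1 cluster (0.633) were nearly equal, whereas the distal pair on chromosome 1 had a ratio of 1.14. A set of 6 abundant noncoding RNAs that also lack a poly(A) tail (RN7SL1, RN7SL2, RN7SK, RPPH1, SNORD3A and RMRP) had a ratio of 0.599 at 30 weeks. Their share of all counts was 22.3% to 31% in the 30-week controls and 17% to 21.5% in the 30-week exposed cells, and 9.75% to 12.9% in the batch 1 samples. Their part in the histone result was not tested. Histone variants outside these clusters, whose mRNA is mostly polyadenylated, had a ratio of 0.781, over a list from which some items were left out after the results were known.

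**Figure D1:**
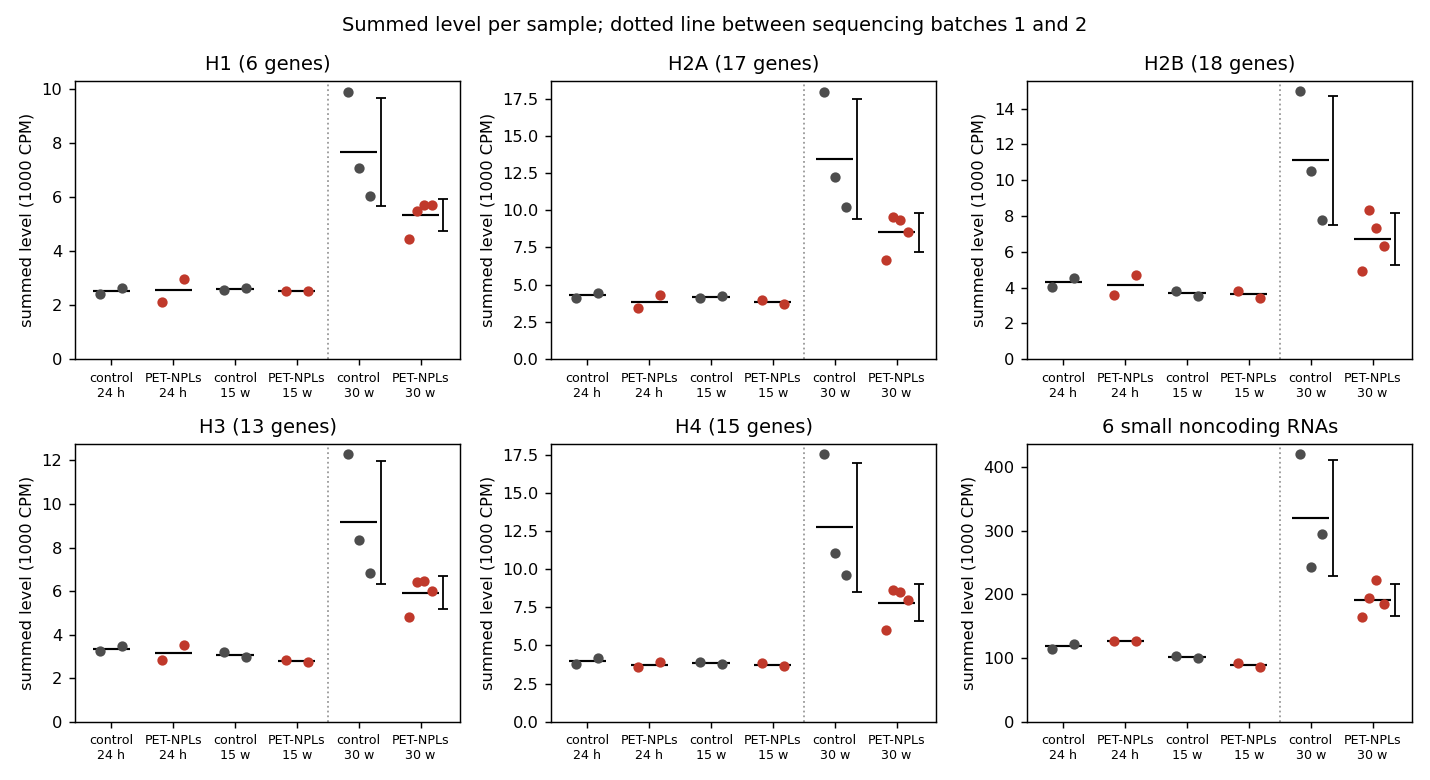
Summed level (in CPM, the axis marked in units of 1000) of the genes of each histone class and of 6 small noncoding RNAs in each of the 15 samples, with points for samples (control grey, exposed red), horizontal lines for group means and bars for SD in the 30-week groups. In every panel the 30-week samples lie above the earlier ones and the exposed mean at 30 weeks lies below the control mean, and in the H2B panel the highest exposed sample (8338 CPM) is above the lowest control (7800 CPM).

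The makeup of the histone counts at 30 weeks was close in both arms. H1 genes held 14.3% of them in controls and 15.6% in exposed cells, H2A genes 24.9% in both, H2B genes 20.4% and 19.4%, H3 genes 16.9% and 17.3%, and H4 genes 23.5% and 22.7%. The chromosome 6 cluster held 75.0% in controls and 74.7% in exposed cells at 30 weeks, and the proximal chromosome 1 cluster 24.2% and 24.3%. A few genes held much of the pool: with the 15 samples weighted equally, 13 of the 69 members gave 51% of its counts on average, led by H4C14 (6.2%), H2AC19 (5.38%), H1-5 (4.72%) and H1-2 (4.62%).

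Per kilobase of annotated span, and averaged over all samples, the highest level was that of H4C14 (4630 CPM per kb), followed by H4C11 (3610), H2AC19 (3070), H3C15 (2340), H4C3 (2080) and H3C2 (2000 CPM per kb). The highest linker histone was H1-2 (1860 CPM per kb), next to H1-5 (1760) and H1-4 (1600 CPM per kb). H2AC11 (1860 CPM per kb) led the H2A genes of chromosome 6, and H2BC8 (1350 CPM per kb) led the H2B genes. Only the 61 members with a span under 1000 bases were compared in this way. H4C14 and H4C15, H3C15 and H3C14, and H2AC19 and H2AC18 are near-identical copies, with 100%, 100% and 99.7% of the windows of 150 bases of the first gene found in the second, so their counts depend on how reads that map to more than 1 place were handled, which is not given in the sources used here. The first gene of each pair held 94.5% to 96.5%, 92.3% to 95.9% and 93.8% to 97.0% of the pair's counts. H4C11 shares 88.8% of such windows with H4C12, and H2AC7, H4C9 and H4C15 overlap other histone gene models, so these counts are uncertain as well. The other 4 members were too low to be tested: H2AC1, H2BC1 and H4C7 stayed at or below 0.0851 CPM and H1-6 at or below 0.210 CPM in every sample, and the first pair and H1-6 are known mainly from the testis.

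Exposure for 24 h and 15 weeks was compared within batch 1 to ask whether the genes responded before 30 weeks. At 24 h 0 of the 65 tested members were called by edgeR's quasi-likelihood test (background 0% of 16740 genes), and their median log2 fold change was -0.09. At 15 weeks 0 were called (background 0%), the smallest adjusted p was 0.909 and the median was -0.10. At an unadjusted p under 0.05, 277 of the 16740 genes tested passed at 24 h and 823 at 15 weeks. Of the 65 tested members, 0 passed this threshold at 24 h and 2 at 15 weeks. When the 15-week comparison was fitted alone, 5 members passed, against 0.852% of all genes lower and 1.11% higher in that fit, each lower in exposed cells: H3C15 (log2 fold change -0.31), H2AC20 (-0.31), H2AC25 (-0.60), H4C6 (-0.70) and H2AC15 (-0.50). Both exposed samples lay below both controls for 29 of the 65 members at 15 weeks, against 22% of all genes tested.

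At 30 weeks most tested members were lower in exposed cells. Of the 65 tested members 47 were lower in exposed cells and 1, H3C3, was higher, against 11.7% of all genes lower and 12% higher (edgeR, Benjamini-Hochberg adjusted p under 0.05), and the other 17 did not pass. The median log2 fold change of the tested members was -0.65, and that of all genes tested was 0.01. By class, 3 of 5 H1, 11 of 16 H2A, 12 of 17 H2B, 9 of 13 H3 and 12 of 14 H4 genes fell. By cluster, 38 of 51 genes of chromosome 6, 8 of 11 of the proximal and 0 of 2 of the distal cluster of chromosome 1 fell, as did H4C16 on chromosome 12. All 4 exposed samples lay below all 3 controls for 39 members, against 13% of all genes tested. Without control replicate 1, 13 members were lower and 2 higher, against 7.04% and 7.9% of all genes, with a median of -0.39. By class, 0 of 5 H1, 2 of 16 H2A, 4 of 17 H2B, 3 of 13 H3 and 4 of 14 H4 genes were then called lower. Without exposed replicate 1, 30 were lower and 2 higher, against 8.68% and 9.48% of all genes. With the 30-week samples fitted alone, 22 were lower and 0 higher, against 7.86% and 7.41%, and H4C14, H2AC19, H3C15, H1-2 and H1-5 were among those that no longer passed. The skeletal muscle markers named above, and the summed level of 12 airway epithelial markers (314 to 411 CPM in controls, 880 to 1100 CPM in exposed cells), also differed between these groups. Of the 12, the keratin genes KRT8 (log2 fold change 2.04), KRT18 (0.80) and KRT19 (1.93) were called higher. EPCAM, CDH1 and KRT7 did not pass, and the others were too low to be tested. The part of these markers in the histone result was not tested. Whether the change differed from that at 15 weeks was tested directly, and 1 member passed, against 4.74% of all genes: H2BC6 (log2 difference -1.11, adjusted p = 0.0494 from edgeR), a call that 7 of 14 other models, scalings and filters did not keep, with the same direction in all 14.

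The members that fell most were core histone genes of chromosome 6. H4C6 (Entrez gene 8361, chromosome 6, 26240393 to 26240793) measured 128, 74.2 and 65.6 CPM in the 30-week controls and 21.6, 28.9, 36.5 and 36.0 CPM in exposed cells. The groups did not overlap, and the log2 fold change was -1.54 ± 0.227 (SE) at an edgeR adjusted p = 0.000128. H3C1 (Entrez gene 8350, chromosome 6, 26020451 to 26020958), which encodes the replication-coupled H3.1 protein, measured 441, 330 and 235 CPM in controls and 82.1, 128, 125 and 132 CPM in exposed cells. Every exposed sample was below every control, which gave a log2 fold change of -1.53 ± 0.196 (SE) at an edgeR adjusted p = 3.24e-05. H4C1, its neighbour 690 bases away, measured 229, 128 and 147 CPM in controls and 60.7, 80.1, 97.3 and 80.7 CPM in exposed cells, which gave a log2 fold change of -1.07 ± 0.178 (SE) at an edgeR adjusted p = 0.000373. H2AC15 (Entrez gene 8330, chromosome 6, 27837880 to 27838375) measured 224, 144 and 105 CPM in controls and 55.2, 83.9, 72.5 and 66.4 CPM in exposed cells, again without overlap. Its log2 fold change was -1.18 ± 0.204 (SE) at an edgeR adjusted p = 0.000524. H2BC6 was a low gene, at 38.0, 38.2 and 27.95 CPM in controls and 12.1, 21.0, 19.2 and 15.2 CPM in exposed cells, and fell by 1.04 on the log2 scale. H4C13 also fell by 1.04 and H2BC4 by 1.01 on the log2 scale.

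The members with the highest levels per kilobase fell by less than the genes above, with values on both sides of the tested members' median of -0.65. H4C14 (Entrez gene 8370, chromosome 1, 149832657 to 149833052) measured 4781, 2844 and 2622 CPM in controls and 1745, 2421, 2344 and 2346 CPM in exposed cells, which gave a log2 fold change of -0.63 ± 0.183 (SE) at an edgeR adjusted p = 0.0209. Without control replicate 1 it was -0.30 (adjusted p = 0.19 from edgeR). With all libraries H4C11, H2AC19, H3C15, H3C2, H2AC11 and H2BC8 had log2 fold changes of -0.77, -0.66, -0.59, -0.70, -0.78 and -0.75. Among the linker histones, which bind DNA between nucleosomes, H1-2 (-0.59), H1-5 (-0.58) and H1-1 (-0.55) fell, while H1-4 (-0.44, adjusted p = 0.0583 from edgeR) and H1-3 (-0.21, adjusted p = 0.401 from edgeR) did not pass. Without control replicate 1 none of these 12 core and linker histone genes passed, with edgeR adjusted p from 0.0552 to 0.947. The remaining genes that fell had log2 fold changes between -0.88 (H2BC11) and -0.48 (H4C16). They were H2AC4, H2AC6, H2AC8, H2AC12, H2AC13, H2AC17, H2AC20 and H2AC21 among the H2A genes, and H2BC5, H2BC10, H2BC11, H2BC12, H2BC13, H2BC15, H2BC17, H2BC18 and H2BC21 among the H2B genes. Among the others they were H3C4, H3C6, H3C8, H3C10, H3C12 and H3C13 and H4C2, H4C3, H4C4, H4C5, H4C8, H4C12 and H4C16. Of the 14 members that the study drew in its own panel, a choice made on these samples and so not independent of them, 11 fell and 1 rose.

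**Figure D2:**
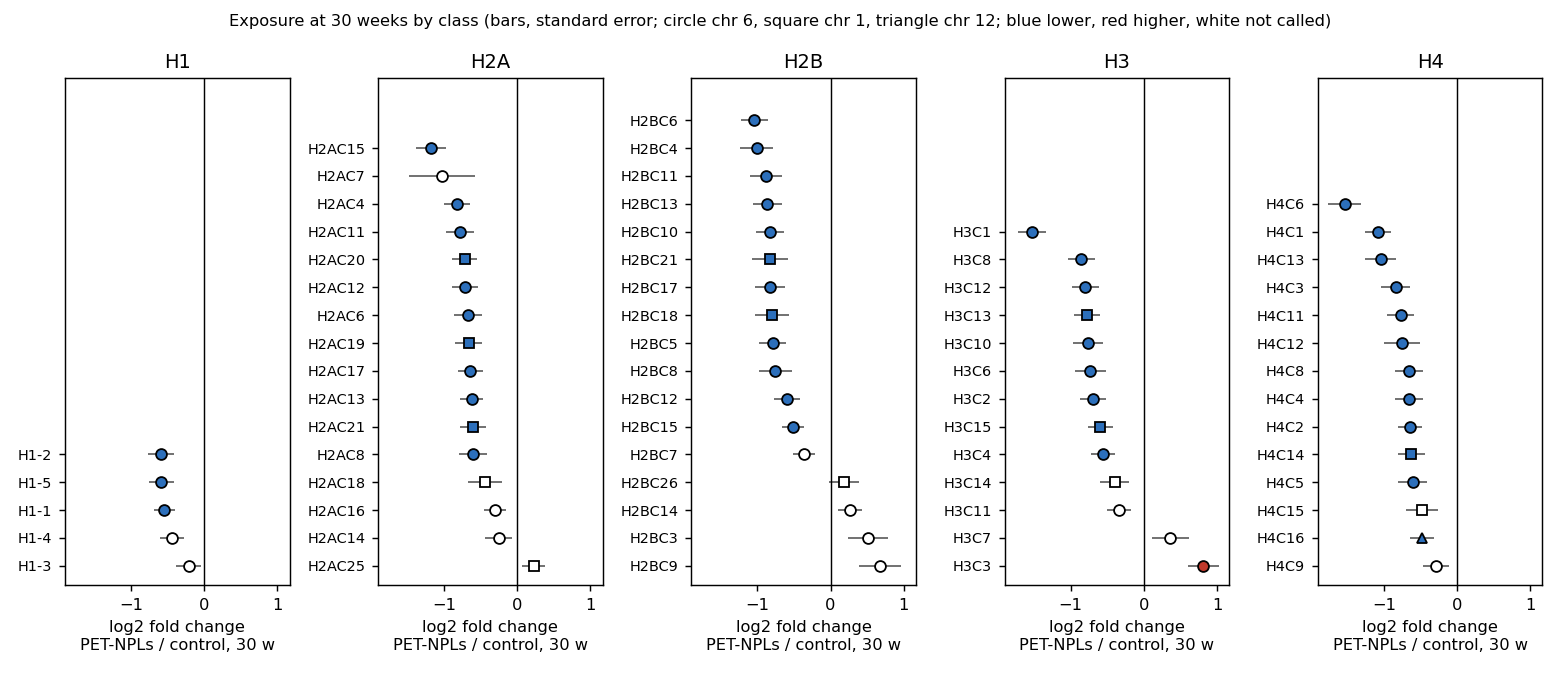
Log2 fold change of exposed against control cells at 30 weeks for the 65 tested members, ordered within each class, with bars for the standard error, symbols for the chromosome and fill for the call. Most members lie between -1 and -0.5, H4C6 (-1.54) and H3C1 (-1.53) lie farthest to the left, and 7 members lie to the right of 0, of which H3C3 (0.81) was called.

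H3C3 (Entrez gene 8352, chromosome 6, 26045384 to 26045869), another H3.1 gene, measured 82.9, 176 and 143 CPM in the 30-week controls and 182, 318, 224 and 217 CPM in exposed cells. The groups did not overlap, though the highest control was close to the lowest exposed sample, and the log2 fold change was 0.81 ± 0.215 (SE) at an edgeR adjusted p = 0.012. Without control replicate 1 it was 0.57 (adjusted p = 0.0541 from edgeR), so the call rests on that library. Another 6 members had positive values that did not pass: H2BC9 (0.67), H2BC3 (0.51), H3C7 (0.36), H2BC14 (0.27), H2AC25 (0.22) and H2BC26 (0.18). Without control replicate 1, H2BC9 (1.17) and H3C7 (0.84) were the 2 members called higher. H2BC3 lies 1670 bases from H3C3, H3C7 lies 978 bases from H2BC9, and H2AC25 lies 229 bases from H2BC26, so 6 of the 7 form neighbouring pairs.

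To compare the members with each other rather than with all genes, the libraries were also scaled to the summed histone counts, a choice made after the data had been seen. The median of all genes tested then moved to 0.61 and that of the members to 0.01 on the log2 scale at 30 weeks, and 10 members were called in place of 48, with 7 higher and 3 lower relative to the pool, against 43.6% and 2.88% of all genes. The 7 were H2BC9 (1.36), H3C3 (1.32), H3C7 (1.06), H2BC3 (1.01), H2BC14 (0.91), H2AC25 (0.87) and H2BC26 (0.82), and the 3 were H3C1 (-0.87), H4C6 (-0.87) and H2AC15 (-0.50). As a share of all histone counts, H2BC3 and H3C3 together held 3.5% to 3.66% at 24 h and 1.68% to 2.17% at 15 weeks. At 30 weeks they held 0.179%, 0.564% and 0.535% in controls and 0.956%, 1.28%, 0.853% and 0.861% in exposed cells, with no overlap. H3C7 and H2BC9 held 1.57% to 1.68% at 24 h, 0.849% to 1.26% at 15 weeks, 0.498% to 0.684% in 30-week controls and 1.12% to 1.48% in exposed cells. H2AC25 and H2BC26 held 0.530% to 0.633% at 24 h, 0.283% to 0.386% at 15 weeks, 0.249% to 0.271% in 30-week controls and 0.427% to 0.536% in exposed cells. For all 3 pairs the mean share was largest at 24 h in either arm, and at 30 weeks the share was higher in every exposed sample than in every control. The pairs were taken from the members with positive values at 30 weeks in these same samples, so the 30-week gap follows from that choice.

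**Figure D3:**
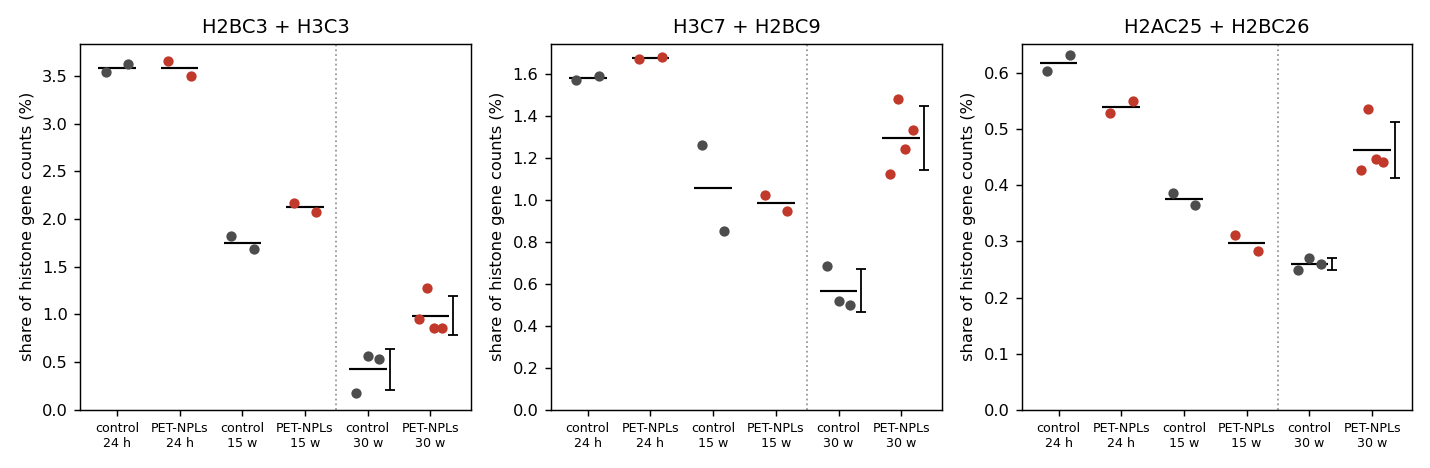
Share of all histone gene counts (%) held by 3 pairs of neighbouring genes in each sample, with points for samples (control grey, exposed red), lines for group means and bars for SD in the 30-week groups. H2BC3 and H3C3 fall from 3.5% to 3.66% at 24 h to at most 0.564% in the 30-week controls and 1.28% in the exposed cells. In each panel the 30-week exposed samples lie above the controls, and the pairs were chosen by their 30-week values in these samples.

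Neighbouring members were described by how far apart their fold changes lay. By annotated span, 25 pairs of adjacent tested members do not overlap and lie under 2000 bases apart. H2AC18 and H4C15 are among them only because the H4C15 model runs 16281 bases past its stem-loop. For the 25 pairs the median difference between the log2 fold changes at 30 weeks was 0.152. Over all 2080 pairs of tested members it was 0.294. For controls between 24 h and 15 weeks the values were 0.208 and 0.361, and for exposed cells over the same interval 0.144 and 0.342. The values were 0.102 and 0.114 for exposure at 24 h, 0.105 and 0.152 for exposure at 15 weeks, and 0.252 and 0.322 for the difference between the effects at 30 and 15 weeks. From 15 to 30 weeks they were 0.183 and 0.358 in controls and 0.138 and 0.334 in exposed cells. Pairs share genes, and some hold near-identical copies, so these medians are descriptions. The widest gaps at 30 weeks were between H3C11 (-0.33) and H4C13 (-1.04), between H2AC15 (-1.18) and H2BC15 (-0.51), and between H2AC7 (-1.03) and H2BC7 (-0.36). The last 2 pairs stand head to head and share a promoter region. H2AC7 was a very low gene, at 7 to 32 counts per sample, and its fold change did not pass.

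Time in culture was compared within batch 1, in control and exposed cells separately, with no sample in common. From 24 h to 15 weeks 8 members fell and 0 rose in controls, against 12.2% and 12.7% of all genes, and 11 fell and 1 rose in exposed cells, against 12.5% and 13.5%. The falls are a share near the background and the rises one below it. With each comparison fitted alone, 10 rose and 20 fell in controls, against 23.1% and 20.6% of all genes, and 3 rose and 19 fell in exposed cells, against 22.4% and 22.5%. Fewer members were called than with all samples when 24 h control replicate 2 or 24 h exposed replicate 2 was left out. Those fits leave 1 sample in a group, and smaller shares of all genes passed in them as well. With all samples in 1 fit, 7 of the 8 that fell in controls were also among the 11 that fell in exposed cells. The same overlap over all genes was not counted, so no background stands beside it. These 7 genes were H4C9, H4C6, H2BC3, H1-3, H2BC26, H1-1 and H2BC14. H4C6 measured 157 and 179 CPM in controls at 24 h and 61.8 and 41.7 CPM at 15 weeks, and 133 and 165 CPM against 35.9 and 28.3 CPM in exposed cells. The log2 fold change was -1.70 ± 0.303 (SE) in controls, at an edgeR adjusted p = 0.000665, and -2.21 ± 0.309 (SE) in exposed cells, at an edgeR adjusted p = 6.46e-05. H4C9 measured 103 and 107 CPM against 27.6 and 28.1 CPM in controls, and 77.8 and 104 CPM against 25.1 and 16.8 CPM in exposed cells, with log2 fold changes of -1.92 and -2.12. The whole span of H4C9 lies within the model of H2BC12, so its counts are uncertain. H1-3, a linker histone, had log2 fold changes of -1.06 in controls and -1.21 in exposed cells, H2BC3 of -1.27 and -1.01, and H2BC26 of -0.95 and -1.04. H3C3 fell in controls (-1.03) and did not pass in exposed cells (-0.71, adjusted p = 0.071 from edgeR), while H2AC25, H3C1, H4C1 and H2BC7 fell in exposed cells. H2BC6 rose in exposed cells (0.97) and was at 0.57 (adjusted p = 0.105 from edgeR) in controls. The summed level of the 69 genes was nearly level over this interval, at 0.944 of the 24 h value in controls and 0.948 in exposed cells.

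From 15 to 30 weeks nearly all members rose in both arms, a comparison in which time and sequencing batch cannot be told apart. In controls 61 of 65 rose and 0 fell, against 25.6% and 24.6% of all genes, with a median log2 fold change of 1.62. In exposed cells 56 rose and 0 fell, against 23.3% and 22.7%, with a median of 1.03. The summed level was 3.12-fold higher in controls and 2.08-fold higher in exposed cells, and that of the 6 small noncoding RNAs was 3.13-fold and 2.14-fold higher. The part of the batch and of these RNAs was not tested. The largest increases in controls were those of H4C1 (2.21), H3C1 (2.20) and H4C12 (2.11), and in exposed cells those of H2BC26 (1.82), H3C11 (1.82) and H2BC7 (1.68). The 4 members that did not pass in controls were H2BC3 (-0.53), H3C3 (-0.55), H2AC7 (-0.06) and H2BC9 (0.65). In exposed cells H4C6 (-0.06), H2BC6 (-0.35), H3C3 (0.07), H2BC3 (-0.26) and H2AC7 (-0.93) were among the 9 that did not pass, and H2BC9 (1.53) rose. H4C6 thus measured 21.6 to 36.5 CPM in exposed cells at 30 weeks, next to 35.9 and 28.3 CPM at 15 weeks.

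**Figure D4:**
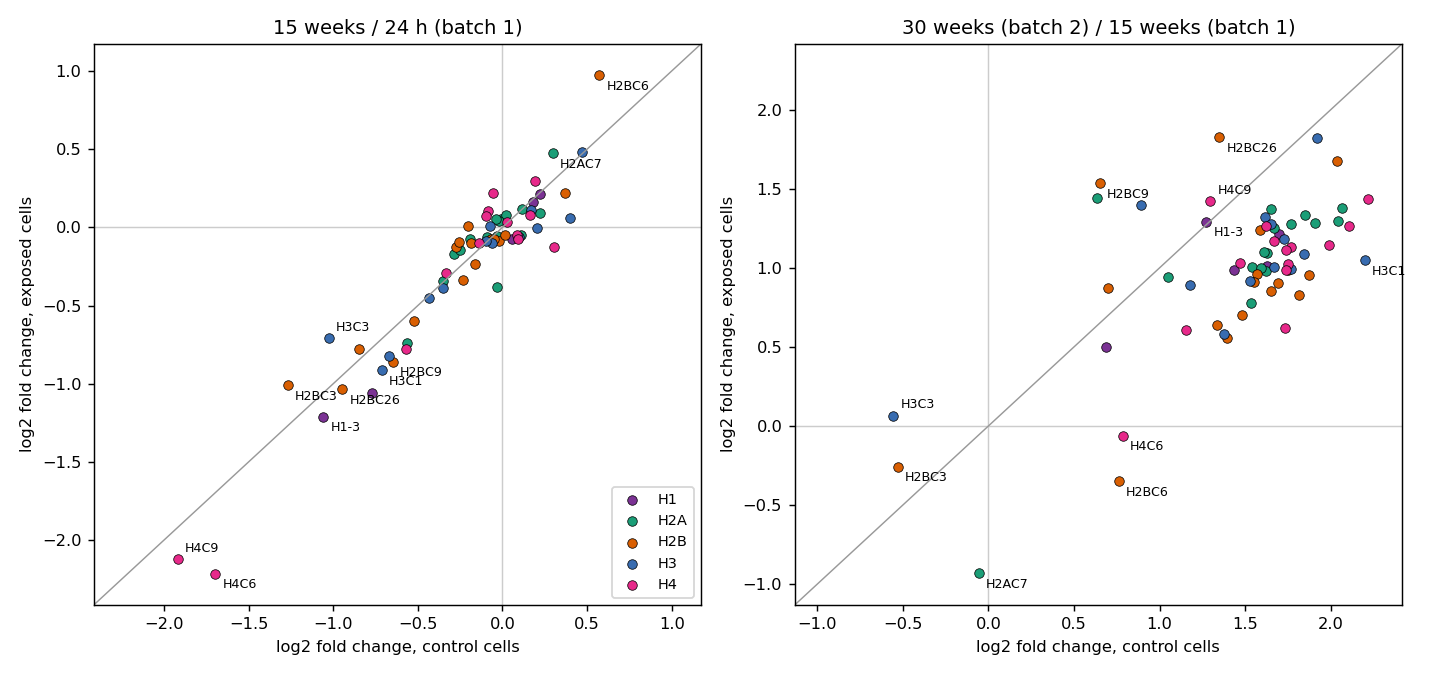
Log2 fold change of the 65 tested members between time points, control cells on the horizontal and exposed cells on the vertical axis, coloured by class, with the diagonal marking equal change. From 24 h to 15 weeks H4C9 and H4C6 lie at the lower left in both arms, and from 15 to 30 weeks most members lie to the right of 1 and below the diagonal, with H2BC9 and H2BC26 above it.

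Other genes of histone supply were compared at 30 weeks, where 12% of all genes were higher and 11.7% lower. Of 15 genes of histone mRNA transcription and 3′ end processing, 1 rose and 0 fell, with a median log2 fold change of 0.06. The one that rose was CASP8AP2, a component of the histone locus body (0.55, adjusted p = 0.00709 from edgeR), and NPAT (0.18), SLBP (-0.09), LSM10 (-0.04) and LSM11 (0.06) did not pass. Of 28 genes of S phase, 3 rose and 0 fell, with a median of 0.16: CCNE1, the cyclin that drives entry into S phase (1.40), MCM6, a subunit of the replicative helicase (0.54), and RRM2, a subunit of ribonucleotide reductase (0.42). PCNA, the sliding clamp, was at 0.07 (adjusted p = 0.832 from edgeR). The rises in these lists and in the next are shares near that background. Of 18 histone chaperones, which carry histones to DNA, 3 rose and 0 fell: CHAF1B (0.86), SUPT16H (0.42) and NAP1L4 (0.29). Of 11 histone variants (after some items had been left out with the results known), which are made outside S phase as well, 1 rose and 1 fell, with a median of -0.08. MACROH2A2, an H2A variant with a large extra domain, rose (0.77), H1-10, a linker histone variant, fell (-0.49), and H2AX (-0.38, adjusted p = 0.0683 from edgeR), H2AZ1 (-0.70, adjusted p = 0.136 from edgeR) and H3-3A (-0.34, adjusted p = 0.154 from edgeR) did not pass. Of the 6 small noncoding RNAs 5 fell, led by RN7SK (-0.90), with a median of -0.78.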

How the data were processed

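Total RNA was sequenced after removal of ribosomal RNA. Per the methods, reads were trimmed with Rfastp, aligned to GRCh38 and assigned to genes with Rsubread. The authors deposited raw counts without normalization, and these counts were used here; the submitters' notes also name featureCounts. Strand and multi-mapping settings were not given in the sources used here. Gene symbols were found for 27745 of 28395 Entrez gene numbers.

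Counts were filtered with filterByExpr (16740 genes, 65 of the 69 members), scaled by TMM and fitted in R 4.3.3 with edgeR 4.0.16 (quasi-likelihood, 15 samples, 6 condition means). P-values were adjusted by Benjamini-Hochberg over all genes, threshold 0.05. Standard errors belong to the fitted log2 fold changes. The procedure was tested on simulated data. Alternatives used limma 3.58.1, DESeq2 1.42.0 and sva 3.50.0, other scalings, filters and thresholds, and left out each replicate in turn. The members, lists and tests were chosen with earlier results of these data known. Genes named in the text were every member called with exposure, the most abundant of each class and cluster, the study's panel, and the 3 largest changes over time. Sequences came from RefSeq and hg38. Some items of the lists are not reported here and were left out of their counts after the results had been seen.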

Additional observations from a re-analysis of the deposited data

Results flagged for a closer look

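Among the 4 exposed samples at 30 weeks, single samples stood apart for 9 of 66 values tested with Dixon's ratio. Chance meets this rule in about 1 in 20 independent groups. Replicate 1 was low for 8 of the 9. The values, the 65 tested members and the summed level, are not independent, since replicate 1 was the lowest for 61 of the 65. The share of all genes that meet the rule was not counted, so no background stands beside the 9. H4C14 measured 1740 CPM in replicate 1 against 2340 to 2420 CPM in the others, H4C11 1250 against 1750 to 1850 CPM, and H1-2 1340 against 1770 to 1810 CPM. H3C10 measured 538 against 763 to 793 CPM, H2AC14 273 against 401 to 403 CPM, and H2AC4 208 against 283 to 294 CPM. H3C1 measured 82.1 against 125 to 131 CPM and H4C9 41.2 against 60.0 to 63.1 CPM. Replicate 3 was high for H3C11, at 226 CPM against 155 to 165 CPM. The cause was not tested.

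The exposure effect on H2BC6 differed between 30 and 15 weeks by -1.11 on the log2 scale (adjusted p under 0.05 in edgeR's test of the difference). This call was lost with DESeq2's size factors (adjusted p = 0.05), with each comparison fitted alone (0.0907), with at least 10 counts in every sample (0.0536), with thinned counts (0.0729), without the 6 small noncoding RNAs (0.0546), with the replicate number as a block (0.103) and with scaling to the histone counts (0.339). The difference stayed between -1.06 and -1.12 on the log2 scale in these settings except with histone scaling, where it was -0.59. The call was kept with upper-quartile scaling (edgeR adjusted p = 0.0386), DESeq2 (0.0174), limma-voom (0.0378), 2 surrogate variables in limma-voom (0.000711) and in edgeR (0.00119), no filter (0.0166) and near-identical copies summed (0.0493).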

How the results depend on the processing

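The 30-week count of 48 called members became 24 at an adjusted p under 0.01, 7 with a fold change of at least 2, 22 with that comparison fitted alone and 10 with scaling to the summed histone counts; over single replicates left out it ran from 15 (without control replicate 1) to 49. H3C1, H4C6 and H2AC15 were lower and passed under all 23 alternatives tried for named genes. Counts in this section are given without the share of all genes called in each setting, so they show only how the calls moved. The 15-week count of 0 became 5 when fitted alone and stayed 0 with single replicates left out, as did the 24 h count. The count of 1 for the difference between exposure effects became 0 at an adjusted p under 0.01, with DESeq2's size factors, fitted alone, with at least 10 counts in every sample, with thinned counts, without the 6 small noncoding RNAs and with the replicate block; it became 2 with upper-quartile or histone scaling, 3 with DESeq2 or no filter, and 11 and 10 with 2 surrogate variables in limma-voom and edgeR, and ran from 0 to 5 with single replicates left out. From 24 h to 15 weeks the controls' count of 8 became 5 at 0.01, 5 with the fold threshold, 17 with surrogate variables in either tool, 30 fitted alone (10 higher, 20 lower) and 5 with histone scaling (3 to 8 with replicates left out), and the exposed cells' 12 became 5, 6, 22 fitted alone and 7 with histone scaling (5 to 9). From 15 to 30 weeks the controls' 61 became 13 with histone scaling (55 to 62), and the exposed cells' 56 became 36 with the fold threshold and 10 with histone scaling (45 to 60).

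The median of -0.65 at 30 weeks was 0.006 with histone scaling, and -0.80 to -0.39 with replicates left out. Histone scaling also turned the sign of H4C14 (0.042), H3C15 (0.071), H2AC21 (0.056), H1-1 (0.062), H4C2 (0.021), H1-2 (0.065), H4C4 (0.018), H3C4 (0.095), H4C5 (0.054), H2AC8 (0.033), H2BC12 (0.059), H2AC13 (0.03), H2BC15 (0.137), H1-5 (0.075), H2AC17 (0.006) and H4C16 (0.172), and 2 surrogate variables that of H2BC3 (-0.016 in limma-voom, -0.013 in edgeR). This follows from its construction, which sets the pool equal in all libraries. Without the 6 small noncoding RNAs the summed levels became 22268 (control) and 21114 CPM (exposed) at 24 h, 21030 and 20004 CPM at 15 weeks, and 64261 and 40929 CPM at 30 weeks. Same-numbered samples did not deviate together (correlations -0.118 to 0.303), so the numbers were not taken as pairs; with the number as a block 38 members were called at 30 weeks. With near-identical copies summed, 47 were called. Groups of 2 samples limit the 24 h and 15-week comparisons.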
